A study of Mus musculus with 7 samples.

Results

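Of 349 protein-coding mouse genes whose symbol is Zfp followed by a number, 64 had a mean of at least 10 counts per library in GFP-positive bone cells sorted as osteoblasts from lung tumor-bearing and tumor-free mice. These 64 genes are described here. They were chosen on their symbol and their counts over all libraries, so their levels are a description with no test. The choice was made with earlier results of these data known, and Zfp65, Zfp446 and Zfp937 were named in it, so the comparison between mice is not independent of it. Of the other 285 Zfp genes, 77 had 0 counts in all 7 libraries. The members nearest the limit were Zfp318 (mean 10.9 counts), Zfp457 (10.7), Zfp462 (10.1) and Zfp706 (10). The nearest genes below it were Zfp128 (9.71 counts), Zfp11 (9.57) and Zfp575 (9.29).

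All mice were males on the C57BL/6 background with a genotype in which Cre recombinase starts tumors from the cells it reaches, including p53Flox/Flox, from which Cre deletes p53, and with a GFP reporter driven by osteocalcin (Ocn-GFP). The 4 tumor-bearing mice had received adenovirus expressing Cre (AdCre) into the trachea and were killed 14 weeks later. The labels do not state separately whether the 3 tumor-free mice received any virus. The age was 31 weeks except in 1 mouse of each group, tumor-bearing replicate 4 and tumor-free replicate 3, which were killed at 23 weeks. From each mouse 2000 cells positive for GFP and negative for CD45, CD31 and Ter119 were sorted from digested bone pooled with marrow depleted of lineage-positive cells, and 1 library of transcript 3′ ends was made. The series asked how osteoblasts differ in the presence of a distant lung tumor.

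Most Zfp genes encode proteins of the C2H2 type, in which each finger is a short loop held around a zinc ion by a pair of cysteines and a pair of histidines, and consecutive fingers read consecutive bases of DNA. Many carry at their N terminus a KRAB domain, which recruits the co-repressor Trim28 (KAP1) and, through it, the histone methyltransferase Setdb1 and heterochromatin proteins. KRAB zinc finger genes have multiplied by tandem duplication, lie in dense arrays, and are best known for silencing transposable elements in the embryo. Others, such as Zfp423 and Zfp467, act in mesenchymal cells on the choice between fat and bone.

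The finger motif itself is shown for 4 members, because its repetition bears on how reads at 3′ ends can be told apart. Zfp937 and Zfp65 had the most counts of the 64, and Zfp970 and Zfp976 had the largest differences between the groups in each direction. Each line is the last unit before the stop codon of the longest coding sequence that has the canonical spacing and a linker starting with threonine and glycine. The units are 84 bases long, in the direction of the gene, from GENCODE vM21 transcripts, and the capitals mark the codons of the cysteines and histidines that hold the zinc. On mm10 the units lie at chr2:150239372-150239455 (plus strand, Zfp937), chr13:67708157-67708240 (minus strand, Zfp65), chr2:177476039-177476122 (plus strand, Zfp970) and chr7:42612591-42612674 (minus strand, Zfp976).
Zfp937: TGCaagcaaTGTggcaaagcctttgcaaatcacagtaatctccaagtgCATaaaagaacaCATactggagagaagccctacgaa
Zfp65: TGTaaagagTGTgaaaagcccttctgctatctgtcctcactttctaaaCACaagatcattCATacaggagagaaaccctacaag
Zfp970: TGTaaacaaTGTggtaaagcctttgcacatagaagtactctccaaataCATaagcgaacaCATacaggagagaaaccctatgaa
Zfp976: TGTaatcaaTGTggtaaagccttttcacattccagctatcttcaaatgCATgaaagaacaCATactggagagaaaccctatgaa

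The units of Zfp937, Zfp970 and Zfp976 were alike at 82.1% to 83.3% of bases, although the genes lie at 3 separate places, and that of Zfp65 matched them at 54.8% to 60.7%. All 60 runs of 25 bases in the Zfp937 unit were also found in transcripts of other genes, 61 genes in all. In the Zfp970 unit 35 of 60 runs were shared, with 75 genes, in the Zfp976 unit 21 of 60, with 86 genes, and in the Zfp65 unit 24 of 60, with 9 genes. In the last 500 bases of the transcripts, nearer to where 3′ end libraries are read, the share of 25-base runs found in other genes was 31.1% for Zfp937, all of it with Zfp442, and 30.5% for Zfp65. The sources used here do not give how reads that match several genes were counted, so counts of these genes are uncertain by an amount that the files do not show.

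Library totals were 77127 to 169774 counts in tumor-bearing mice and 102144 to 122911 counts in tumor-free mice, and a count of 0 allows up to 38.9 CPM (3 counts) in the shallowest library, tumor-bearing replicate 1, and 17.7 CPM in the deepest, tumor-bearing replicate 3. These limits and the marker sums that follow are on unscaled library totals, while the CPM of single genes are on totals adjusted by TMM. Markers of the labelled cell type were thin. Bglap, which encodes osteocalcin, had 0 to 2 counts, Sp7 0 to 2 and Alpl 1 to 7, while Col1a1 had 23 to 96 and Runx2 7 to 35. The 10 osteoblast markers summed to 954 to 1517 CPM in tumor-bearing and 1365 to 2369 CPM in tumor-free libraries, and 3 chondrocyte markers to 583 to 2690 CPM and 862 to 1038 CPM. Of 10 leukocyte markers 4 were at 0 everywhere and the sum was 386 to 459 CPM in tumor-bearing and 366 to 455 CPM in tumor-free libraries, with Ptprc at 0 to 2 counts, Itgam at 19 to 45 and Csf1r at 8 to 24. The 5 marrow stroma markers summed to 671 to 934 CPM and 607 to 733 CPM, with Adipoq at 0 everywhere, Lepr at 58 to 123 counts and each of the others at 5 or fewer. The 5 erythroid markers found summed to 63.6 to 104 CPM and 122 to 186 CPM. No osteoblast, chondrocyte or erythroid marker was at 0 everywhere. Endothelial markers, 4 of 5 at 0 everywhere, summed to at most 5.89 and 8.14 CPM, and megakaryocyte markers, 2 of 3 at 0 everywhere, to at most 0 and 25.3 CPM. The part of these cell types in the values below was not tested, and in sorted bulk RNA fewer cells of a type and less RNA per cell cannot be told apart.

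The 64 members had at least 1 count in each of the 7 libraries. The mean was 100 counts or more for 6 of them, 50 to 100 for 21, 20 to 50 for 17 and 10 to 20 for 20, with a median of 38.1. Together they took 3.28%, 2.76%, 2.58% and 2.62% of the counts in tumor-bearing replicates 1 to 4, against 2.43%, 2.72% and 2.71% in tumor-free replicates 1 to 3. The mean share was 2.81% ± 0.323 (SD, n = 4) in tumor-bearing and 2.62% ± 0.162 (SD, n = 3) in tumor-free mice. The groups overlapped, and the difference of 0.189 percentage points shrank to 0.0325 without tumor-bearing replicate 1, which was the only library above 3%, and to 0.0955 without tumor-free replicate 1.

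**Figure D1:**
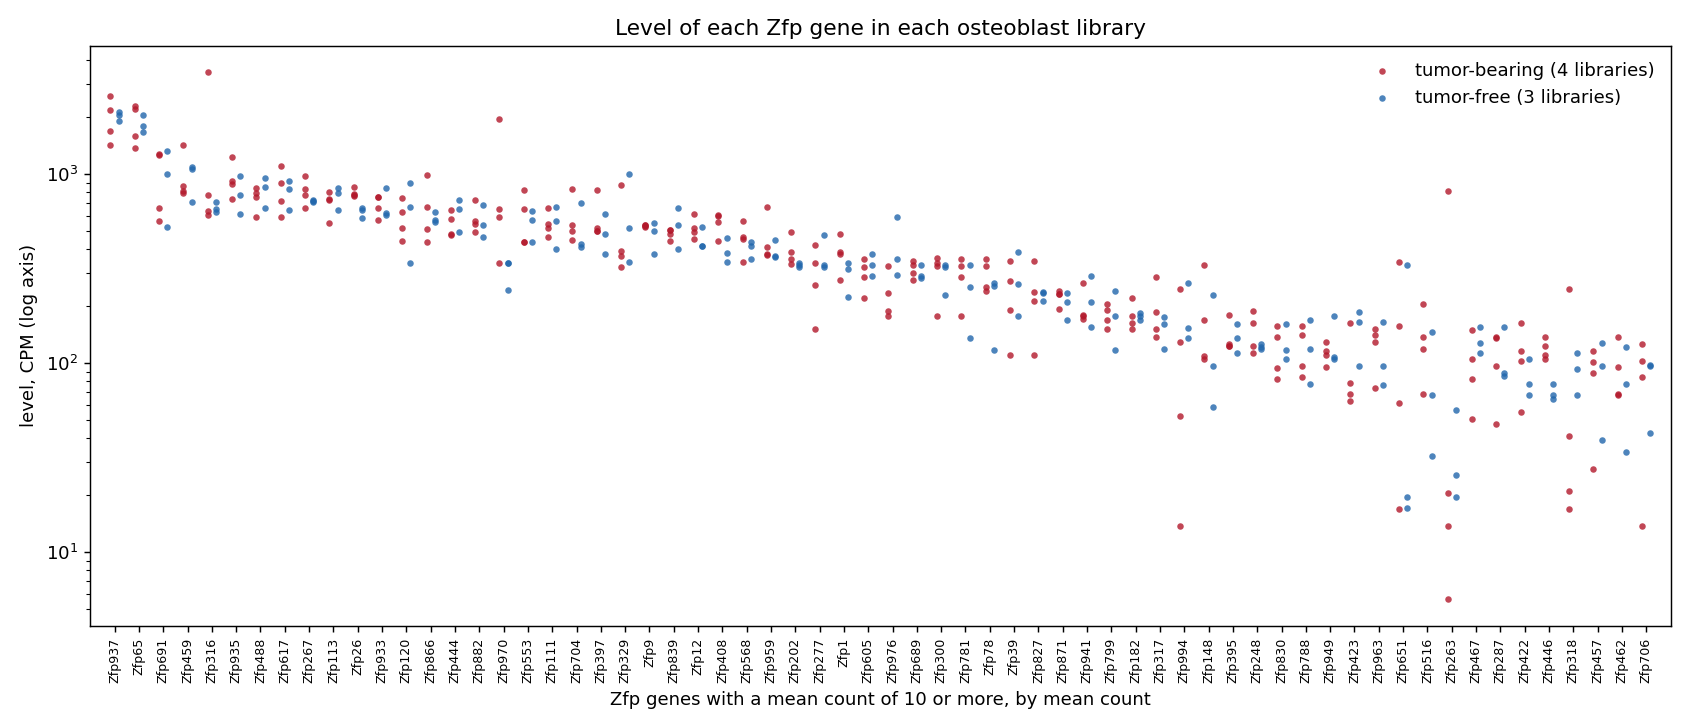
Level of each of the 64 Zfp genes in each library, in CPM on a log axis, with genes ordered by mean count, tumor-bearing libraries in red on the left of each pair and tumor-free libraries in blue. The points of the 2 groups lie over the same range for most genes, and single high points stand out for Zfp316, Zfp970 and Zfp263.

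Zfp937 (Entrez 245174, chromosome 2, 150218077 to 150246738, mm10) is a KRAB zinc finger gene with 14 fingers in its predicted protein. It had 188, 208, 254 and 247 counts in tumor-bearing replicates 1 to 4, against 210, 251 and 236 counts in tumor-free replicates 1 to 3. The range of the tumor-free libraries lay within that of the tumor-bearing ones, at 1969 ± 514 CPM (SD, n = 4) in tumor-bearing and 2025 ± 115 CPM (SD, n = 3) in tumor-free mice. Its mean of 228 counts ranked 6 among all genes of the libraries, although the highest counts hardly grew with depth, as given below. Zfp65 (Entrez 235907, chromosome 13, 67705306 to 67729178), another KRAB gene, had 161, 219, 245 and 232 counts in tumor-bearing mice, against 210, 197 and 224 counts in tumor-free mice. It ranked 9 among all genes, and its groups also overlapped, at 1867 ± 457 CPM (SD, n = 4) in tumor-bearing and 1840.1 ± 188 CPM (SD, n = 3) in tumor-free mice. In these genes the lowest count fell on the shallowest library and the highest on the deepest.

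After these 2 the counts dropped to a group of genes with means near 100. Zfp691, a gene with 7 fingers and no KRAB pattern, had 92, 63, 227 and 83 counts in tumor-bearing mice, against 103, 156 and 65 in tumor-free mice, so both groups held high and low libraries. Zfp459, a KRAB gene on chromosome 13, had 104, 82, 145 and 117 counts in tumor-bearing mice, against 73, 126 and 135 in tumor-free mice. Zfp935, also on chromosome 13, had 90, 84, 131 and 135 counts in tumor-bearing mice, against 63, 115 and 96 in tumor-free mice. The annotated Zfp935 protein holds a KRAB pattern and no finger of the canonical spacing. All 25-base runs of its last 500 bases are shared with Gm49359, a gene model on the same strand, so its counts cannot be assigned to Zfp935 alone. Zfp488, Zfp617, Zfp267 and Zfp113 followed, with means of 94.6, 93.4, 90.3 and 86.6 counts. Zfp488 is known for a part in oligodendrocyte differentiation. The libraries are of transcript 3′ ends, so the counts were not corrected for transcript length. Per kilobase of the longest coding transcript the order would be Zfp937 (81.4), Zfp935 (62.5), Zfp65 (53.7), Zfp691 (48.1) and Zfp970 (41.7). That order is not read as level here.

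The counts of the highest members grew less than the library totals. The deepest library held 2.20 times the total of the shallowest, but 1.35 times the count of Zfp937 and 1.52 times that of Zfp65. For the 25 members with means of 50 to 150 counts the median ratio was 1.83, and for the 37 members with means of 10 to 50 it was 3.07. The same gradient was present outside the family, with medians of 1.83 for 35 other protein-coding genes of at least 150 counts, 2.04 for 588 genes at 50 to 150 and 2.75 for 1475 genes at 10 to 50. Over all genes the highest count in a library lay between 282 and 303, at 291 in the shallowest and 298 in the deepest. The counts of Zfp937 and Zfp65 came near that range, so their ranks and CPM are uncertain measures of level. The cause was not tested. In CPM, Zfp937 was highest in the shallowest library and Zfp65 in tumor-bearing replicate 2, the next shallowest.

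**Figure D2:**
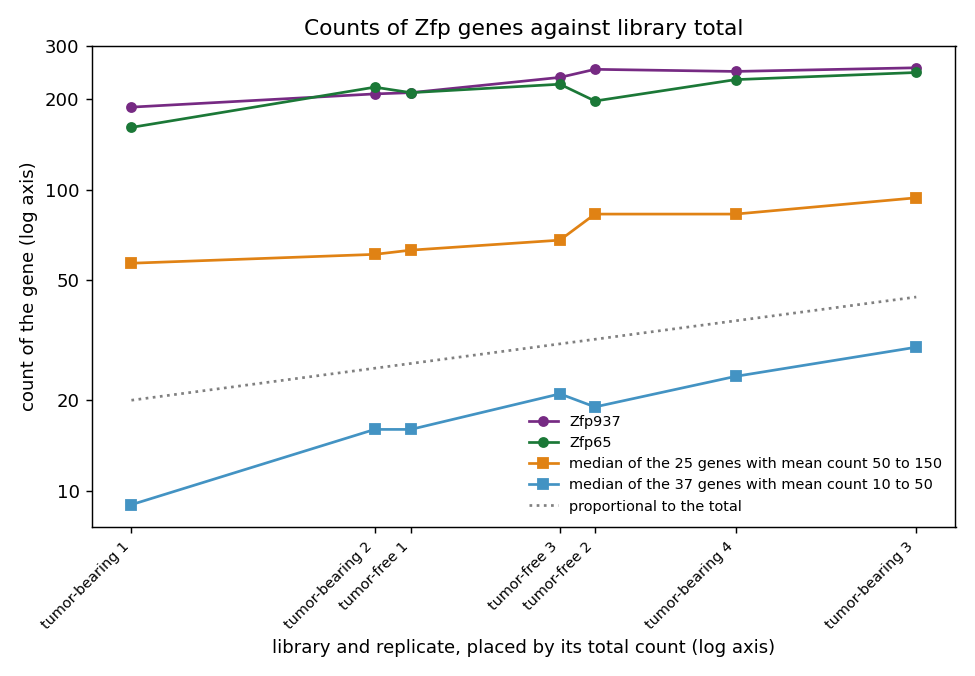
Count of Zfp937, of Zfp65 and the median count of 2 sets of Zfp genes, on a log axis, against the total count of each of the 7 libraries, also on a log axis. The dotted line shows growth in proportion to the total. Zfp937 and Zfp65 rise less steeply than that line, while the median of the 37 genes with means of 10 to 50 counts rises more steeply.

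The levels of the members varied between libraries by more than counting alone gives, though less than those of other genes at the median. The median coefficient of variation of CPM over the 7 libraries was 25.7%, against 30.8% for 2116 other protein-coding genes with a mean of at least 10 counts. Chi-square per degree of freedom over the libraries, which is 1 for pure counting error, had a median of 1.81 in members and 2.22 in the others. It was under 2 for 36 members (56.3%) and for 46.0% of the others. Members and others were not matched on mean count, on which both measures depend, so these differences are not read as a trait of the members. Zfp9 varied least among the tumor-bearing libraries, with 39, 51, 94 and 77 counts in tumor-bearing mice, against 39, 59 and 68 in tumor-free mice. Its CPM were 531 ± 5.23 (SD, n = 4) in tumor-bearing and 476 ± 87.0 (SD, n = 3) in tumor-free mice. Over all 7 libraries its coefficient of variation was 11.5%, above the 9.21% of Zfp689. Zfp9 was picked as an extreme, so its small spread is not read as a trait of the gene. In 4 members (6.25%, against 8.27% of the others) 1 library held more than 40% of the summed CPM. These were Zfp316 and Zfp970, with tumor-bearing replicate 1 high, Zfp263 with tumor-bearing replicate 2 and Zfp318 with tumor-bearing replicate 4.

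Between tumor-bearing and tumor-free mice, none of the 63 members that passed the filter on low counts was called at an adjusted p under 0.05 (edgeR's quasi-likelihood test including age, Benjamini-Hochberg over 2495 genes). Over all 2495 genes 0 (0.0%) were called, and the lowest adjusted p was 0.990 in both. DESeq2 and limma voom called 0 genes as well. At an unadjusted p under 0.05, edgeR listed 1 member higher in tumor-bearing mice, Zfp446, and 1 lower, Zfp976, which is 3.17% of members beside 2.69% of all genes (67 genes, 1.0% higher and 1.68% lower), with 1.96% by DESeq2 and 2.89% by limma voom. Groups did not overlap, with every tumor-bearing library higher, for 2 of the 64 members, Zfp446 and Zfp26, and no member was lower in every tumor-bearing library. Those 2 are 3.13% of members, beside 3.53% of all genes tested (2.2% higher, 1.32% lower). The share of members with unadjusted or non-overlapping differences was thus near the background. Zfp446, counted in both shares, passed the mean count limit through tumor-bearing libraries, so its direction is tied to the choice of members.

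The log2 fold changes, tumor-bearing over tumor-free, of the 63 members had a median of 0.07, with quartiles of -0.10 and 0.24. Over all 2495 genes the median was 0.04 and the quartiles -0.20 and 0.26. The estimate was above 0 for 40 members (63.5%, beside 54.1% of all genes) and below 0 for 23, and 57 lay within 0.5 of 0. Without tumor-free replicate 1 the median was -0.01 and 31 of 63 were above 0, and without tumor-bearing replicate 1 it was 0.01 with 32 of 62 above 0. The median SE of a member was 0.29, so that many single estimates were of the size of their own error.

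**Figure D3:**
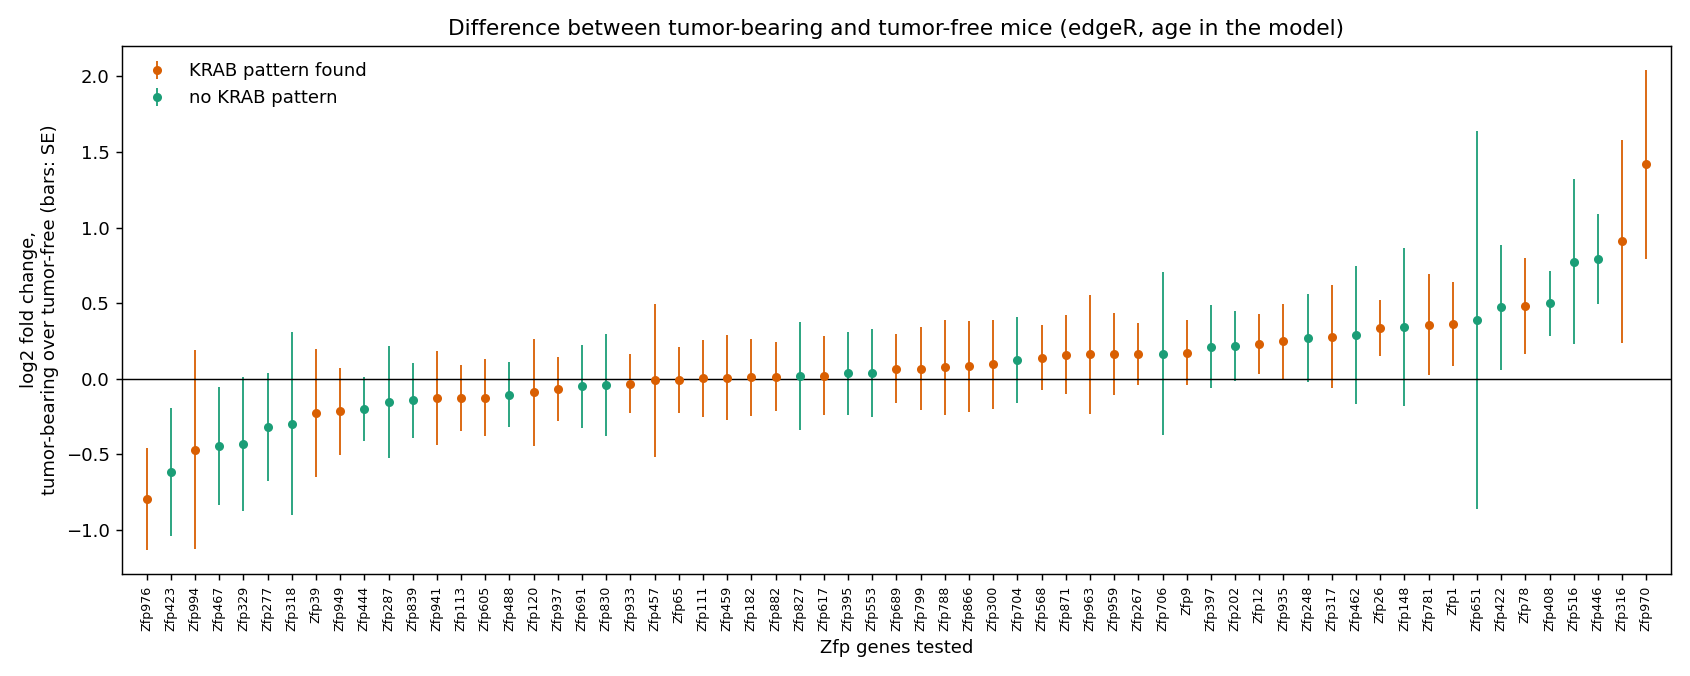
Log2 fold change of each of the 63 Zfp genes tested, tumor-bearing over tumor-free, with bars of 1 SE, coloured by whether a KRAB pattern was found in the protein. The estimates run from -0.79 (Zfp976) to 1.42 (Zfp970), and most bars reach or come near 0.

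Zfp446, a gene with 3 fingers and no KRAB pattern (chromosome 7, 12976196 to 12985717), had 8, 10, 22 and 20 counts in tumor-bearing mice, against 8, 8 and 8 counts in tumor-free mice. Scaled to depth this was 119 ± 14.2 CPM (SD, n = 4) in tumor-bearing and 70.1 ± 6.93 CPM (SD, n = 3) in tumor-free mice, and every tumor-bearing library lay above every tumor-free one. The log2 fold change was 0.79 (SE 0.30, edgeR adjusted p = 0.990), and among 31-week-old mice alone it was 0.63. All tumor-free counts of Zfp446 were below the mean count limit of 10, so it became a member through tumor-bearing libraries. Its higher level in tumor-bearing mice is therefore not independent of the choice of members. Zfp26, a KRAB gene with 22 fingers (chromosome 9, 20428318 to 20460169), had 57, 81, 136 and 113 counts in tumor-bearing mice, against 66, 69 and 82 in tumor-free mice. Its CPM were 792 ± 40.2 (SD, n = 4) in tumor-bearing and 630 ± 39.1 (SD, n = 3) in tumor-free mice, with no overlap, and its log2 fold change was 0.33 (SE 0.19, edgeR adjusted p = 0.990). Zfp408, whose human counterpart is linked to inherited retinal disease, had 44, 53, 79 and 88 counts in tumor-bearing mice, against 35, 45 and 57 in tumor-free mice. The groups overlapped only through the lowest tumor-bearing and the highest tumor-free library, and the log2 fold change was 0.50 (SE 0.22, edgeR adjusted p = 0.990).

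The 2 members with the largest estimates on the higher side, Zfp970 and Zfp316, had their highest level in tumor-bearing replicate 1. Zfp970, a KRAB gene with 14 fingers (chromosome 2, 177464742 to 177479194), had 142, 62, 60 and 87 counts in tumor-bearing mice, against 25, 40 and 42 in tumor-free mice. Although all 4 tumor-bearing counts were above the tumor-free ones, the CPM groups overlapped, because tumor-bearing replicate 3 is the deepest library. The log2 fold change was 1.42 (SE 0.63, edgeR adjusted p = 0.990) and 0.73 without tumor-bearing replicate 1. Of the 25-base runs in the last 500 bases of its transcript 76.7% are shared with other genes, 33.2% with Gm14288, the highest for 1 gene. Zfp316, a KRAB gene with 15 fingers and no shared run in that stretch, had 252, 61, 108 and 114 counts in tumor-bearing mice, against 67, 84 and 78 in tumor-free mice. The other 3 tumor-bearing libraries lay at 607 to 778 CPM and the tumor-free ones at 629 to 713 CPM, and the log2 fold change of 0.91 (SE 0.67) became -0.0037 without tumor-bearing replicate 1. Zfp263, a member only through 1 library, was left out by the filter. It had 1, 77, 1 and 3 counts in tumor-bearing mice, against 2, 3 and 7 in tumor-free mice, so that 81.9% of its counts came from a single library.

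Of the remaining named members on the higher side, Zfp78, a KRAB gene, had 26, 24, 43 and 48 counts in tumor-bearing mice, against 12, 30 and 33 in tumor-free mice (log2 fold change 0.48, SE 0.32). Zfp516, a factor known to activate the thermogenic gene Ucp1 in brown fat, had 5, 13, 21 and 30 counts in tumor-bearing mice, against 15, 8 and 4 in tumor-free mice. Its log2 fold change of 0.77 (SE 0.55) was 0.06 in 31-week-old mice alone, since the highest tumor-bearing and the lowest tumor-free library were those of 23 weeks, and 1.52 without tumor-free replicate 1. The mean of the tumor-free counts of Zfp516 alone lies below the mean count limit of 10. Its higher level in tumor-bearing mice is therefore not independent of the choice of members. Zfp1, a KRAB gene, had 35, 36, 49 and 57 counts in tumor-bearing mice, against 23, 40 and 39 in tumor-free mice, with overlapping groups (0.36, SE 0.28).

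On the lower side Zfp976, a KRAB gene with 18 fingers (chromosome 7, 42609514 to 42644267), had 13, 18, 42 and 48 counts in tumor-bearing mice, against 30, 70 and 44 in tumor-free mice. Its level was 233 ± 67.9 CPM (SD, n = 4) in tumor-bearing and 414 ± 160 CPM (SD, n = 3) in tumor-free mice, and the groups overlapped. The log2 fold change was -0.79 (SE 0.34, edgeR adjusted p = 0.990), and -0.35 without tumor-free replicate 2, the library with 70 counts. Of the 25-base runs in the last 500 bases of its transcript 62.2% are shared, 26.5% with Zfp975, the highest for 1 gene. Zfp329 had 64, 35, 70 and 47 counts in tumor-bearing mice, against 35, 118 and 64 in tumor-free mice, and its log2 fold change of -0.43 (SE 0.44) became 0.05 without that same tumor-free library. Zfp994, a KRAB gene with 1, 5, 44 and 19 counts in tumor-bearing mice, against 14, 18 and 33 in tumor-free mice, had -0.47 (SE 0.66). Without tumor-bearing replicate 3, the library with 44 counts, it was -1.52, and without tumor-free replicate 3 -0.17.

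Zfp444 had 42, 45, 115 and 71 counts in tumor-bearing mice, against 67, 86 and 61 in tumor-free mice (-0.20, SE 0.21). Zfp277, reported in mouse cells to bring Polycomb proteins to the Ink4a/Arf locus, had 11, 40, 60 and 38 counts in tumor-bearing mice, against 33, 39 and 59 in tumor-free mice (-0.32, SE 0.36). Zfp949, a KRAB gene, had 8, 11, 23 and 14 counts in tumor-bearing mice, against 11, 21 and 13 in tumor-free mice (-0.21, SE 0.29). All 3 had overlapping groups.

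**Figure D4:**
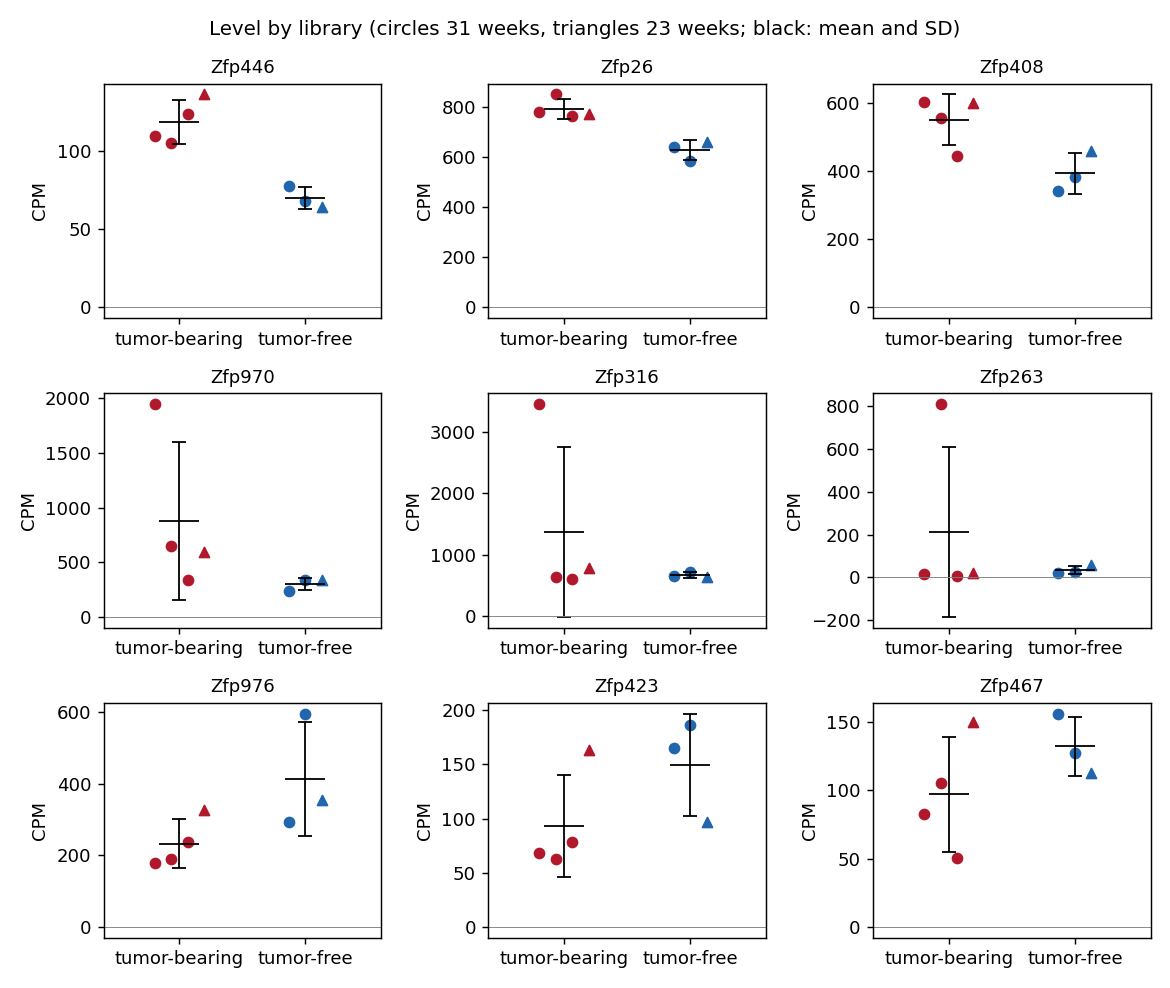
CPM by library of 9 Zfp genes, with tumor-bearing libraries in red on the left, tumor-free libraries in blue on the right, circles for 31-week-old and triangles for 23-week-old mice, and black bars for the mean and SD. Zfp446 and Zfp26 show groups that do not overlap, and 1 high library sets the mean of Zfp316 and Zfp263. The 23-week-old tumor-bearing mouse is the highest of its group for Zfp446, Zfp976, Zfp423 and Zfp467.

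Among members with known roles in mesenchymal cells, Zfp423, a transcription factor that commits cells to the fat lineage, had 5, 6, 14 and 24 counts in tumor-bearing mice, against 17, 22 and 12 in tumor-free mice. Its level was 93.5 ± 47.3 CPM (SD, n = 4) in tumor-bearing and 150 ± 47.0 CPM (SD, n = 3) in tumor-free mice, and the log2 fold change was -0.62 (SE 0.42, edgeR adjusted p = 0.990). Among 31-week-old mice the log2 fold change was -1.31, with an adjusted p of 0.996 by edgeR, while at 23 weeks, with 1 mouse per group, the tumor-bearing library held 24 counts and the tumor-free library 12. Leaving out 1 library at a time gave -1.33 (without tumor-bearing replicate 4) to -0.38 (without tumor-free replicate 2), so age and single mice cannot be told apart. Zfp467, which in mouse marrow stroma favours fat over bone formation, had 6, 10, 9 and 22 counts in tumor-bearing mice, against 16, 15 and 14 in tumor-free mice. Its level was 97.0 ± 41.9 CPM (SD, n = 4) in tumor-bearing and 132 ± 21.8 CPM (SD, n = 3) in tumor-free mice, with a log2 fold change of -0.45 (SE 0.39) in all mice and -0.92 in 31-week-old mice. A difference of these changes between the ages was not tested, because each group held 1 mouse of 23 weeks. The summed osteoblast and chondrocyte markers also differed between libraries, as given above, and their part was not tested.

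Other members of the role list had overlapping groups. Zfp568, a KRAB protein that represses a placental Igf2 transcript in mouse embryos, had 34, 54, 81 and 50 counts in tumor-bearing mice, against 45, 49 and 44 in tumor-free mice (0.14, SE 0.22). Zfp148, which binds GC-rich promoters, had 24, 10, 30 and 16 counts in tumor-bearing mice, against 6, 27 and 12 in tumor-free mice (0.34, SE 0.52). Zfp462, the member with most fingers (33), had 5, 13, 12 and 14 counts in tumor-bearing mice, against 8, 4 and 15 in tumor-free mice (0.29, SE 0.46). The mean of the tumor-free counts of Zfp462 alone lies below the mean count limit of 10, so its direction is tied to the choice of members. Zfp318, needed for IgD expression in B cells, had 3, 2, 3 and 36 counts in tumor-bearing mice, against 7, 11 and 14 in tumor-free mice (-0.30, SE 0.61), with 1 high library among the tumor-bearing ones. Without that library Zfp318 would lie below the mean count limit. The best studied Zfp genes outside the 64 were sparse. Zfp36, which encodes the mRNA decay factor tristetraprolin, had 0 to 1 counts, the pluripotency marker Zfp42 0 to 1, the retroviral silencer Zfp809 0 to 2, the imprinting factor Zfp57 0 to 9, and Zfp521, a regulator of osteoblast maturation, 0 in every library. These low counts give an upper limit at this depth and do not show absence.

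In position, the 64 members were on 18 of the 20 chromosomes that hold Zfp genes. Chromosome 7 had the most, 11 of its 87 Zfp genes, and chromosome 8 had 7 of 24, while chromosomes 17 and 13 had 5 of 41 and 4 of 31. When members whose starts lie at most 500 kb apart are joined, 23 members (35.9%) formed 11 runs, 1 of 3 genes and 10 of 2. Counting all Zfp genes, 38 members (59.4%) and 196 of the others (68.8%) had another Zfp gene within 500 kb, and 31.3% of members and 48.8% of the others lay in runs of 5 or more. These shares are descriptions, since neighbours share a history of duplication.

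**Figure D5:**
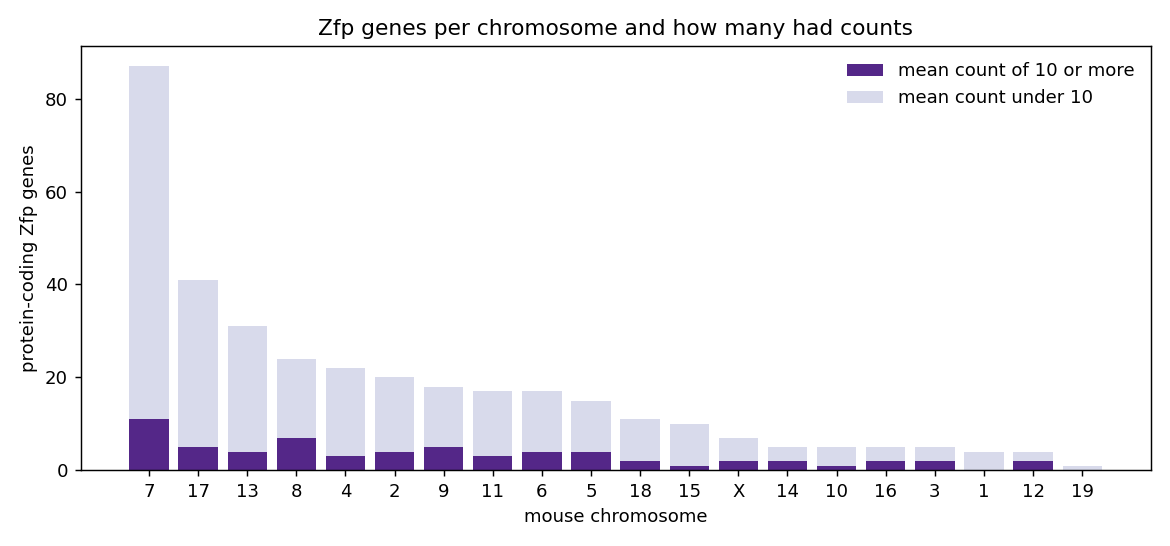
Number of protein-coding Zfp genes per mouse chromosome, split into those with a mean count of 10 or more (dark) and those below (light). Chromosome 7 has the tallest bar, with 11 of 87 genes above the limit, and chromosomes 1 and 19 have none.

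The largest run, Zfp457, Zfp459 and Zfp65 (chromosome 13, 67288137 to 67729178), lies in an array of 19 Zfp genes that includes the Rsl genes, repressors of sex-dependent genes in mouse liver. Of the 19, 8 had 0 counts everywhere, and the highest mean among the 16 that are not members was 2.14 counts. Zfp457 had 2, 11, 18 and 13 counts in tumor-bearing mice, against 4, 15 and 12 in tumor-free mice. The log2 fold changes of Zfp457, Zfp459 and Zfp65 were -0.01, 0.01 and -0.01, and in all 3 the groups overlapped. The genes between and beside the members thus had few or no counts.

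The log2 fold changes of neighbouring members lay closer in some pairs than in others, and these gaps were not tested. Zfp120 and Zfp937 (chromosome 2, 150114407 to 150246738) had mean counts of 71.9 and 228 and log2 fold changes of -0.09 and -0.07. Zfp882 and Zfp617, KRAB genes that lie side by side on chromosome 8 (71908606 to 71934630), had means of 67.4 and 93.4 counts and log2 fold changes of 0.01 and 0.02. Less alike were Zfp329 and Zfp446 on chromosome 7, at -0.43 and 0.79, and Zfp444 and Zfp78, at -0.20 and 0.48. The SEs of these genes were 0.21 to 0.44. Zfp12 and Zfp316 on chromosome 5 were at 0.23 (SE 0.20) and 0.91 (SE 0.67). The remaining pairs lay closer, with Zfp553 and Zfp689 at 0.04 and 0.07, and Zfp963 and Zfp866 at 0.16 and 0.08. Zfp248 and Zfp9 were at 0.27 and 0.17, Zfp182 and Zfp300 at 0.01 and 0.10, and Zfp871 and Zfp799 at 0.16 and 0.07. In the other arrays of at least 10 Zfp genes, those with a mean of at least 10 counts were 1 of 23 genes on chromosome 17 (Zfp994), 1 of 15 and 1 of 14 in 2 arrays on chromosome 7 (Zfp568 and Zfp111), 2 of 11 on chromosome 17 (Zfp871 and Zfp799) and 2 of 10 on chromosome 7 (Zfp553 and Zfp689). In the same order 2, 5, 6, 2 and 1 genes of these arrays had 0 counts everywhere.

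A KRAB pattern was found in 37 of the 64 members (57.8%) and in 161 of the 284 others with a transcript (56.7%), and the median number of fingers was 10.5 in both. Of the members, 5 had no finger of the spacing searched, namely Zfp395, Zfp704, Zfp781, Zfp839 and Zfp935. KRAB members had a median of 49.3 counts and those without the pattern 16.9 counts, a description because the counts chose the members. The median log2 fold change was 0.07 in KRAB members (25 of 37 above 0) and 0.04 in the 26 others tested (15 above 0).

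The longest coding transcripts of members were longer than those of the other Zfp genes, with medians of 3963 and 3248 bases. An A-rich window, at least 11 A in 12 bases outside the last 100, to which an oligo-dT primer can anneal, occurred in 37.5% of members and 17.9% of the others. Longer transcripts can hold more such windows, and the counts chose the members, so no test is given. Over 20% of the 25-base runs in the last 500 bases were shared with other genes in 14 members (21.9%) and in 41 of the others (14.4%), and no run was shared in 29 members (45.3%) and 54.7% of the others. Across the members Spearman's rho of the mean count was -0.07 with transcript length, -0.00 with the number of fingers and 0.07 with the shared part of the tail, over 64 genes that are not independent.

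The genes of the machinery through which KRAB proteins act were read from the same fit. Of 35 genes of the co-repressor list, 7 passed the filter and 0 were called by edgeR (background 0.0%), and none had an unadjusted p under 0.05. Trim28, the co-repressor itself, had 0 counts in all 7 libraries, and the methyltransferase gene Setdb1 had 0 to 33. Mta2 and Morc2a of the same list were also at 0 everywhere, and Hdac1 had 0 to 2 counts. Such counts give an upper limit at this depth and do not show absence. Cbx5, which encodes heterochromatin protein 1 alpha, had 9, 17, 41 and 24 counts in tumor-bearing mice, against 49, 40 and 17 in tumor-free mice (log2 fold change -0.77, SE 0.37, edgeR adjusted p = 0.990). Rbbp4, a histone-binding subunit of several chromatin complexes, had 91, 18, 98 and 63 counts in tumor-bearing mice, against 15, 46 and 45 in tumor-free mice (0.94, SE 0.65), with overlapping groups. Over the 7 genes 3 were above 0 and 4 below, with a median of -0.06. Of 41 Zbtb genes, zinc finger genes with a BTB domain in place of KRAB, 9 passed the filter, 7 of them above 0, with a median of 0.22 and 0 called. Zbtb8a had 8, 15, 22 and 11 counts in tumor-bearing mice, against 8, 8 and 7 in tumor-free mice (0.72, SE 0.32, edgeR adjusted p = 0.990). It passed the filter on low counts through tumor-bearing libraries only, so its direction, counted among the 7, is tied to the filter. Of 27 Zscan and Zkscan genes only Zscan29 (-0.21, SE 0.26) and Zscan26 (0.17, SE 0.33) passed the filter.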

How the data were processed

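RNA of 2000 sorted cells per mouse was extracted with Trizol and made into 3′ end libraries by a custom CEL-Seq protocol with unique molecular identifiers, per the labels' protocols. TopHat2 2.0.10, SAMtools and build mm10 are named in the submitters' processing notes. For each mouse the authors deposited raw counts as whole numbers by Entrez ID. The counting program, annotation, strand setting and use of the identifiers were not given in the sources used here, so a count may be a read or a molecule. Limits from counts cover counting error only.

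RefSeq (GRCm38.p6, the assembly of mm10) gave symbols, biotypes and coordinates to 23666 of 23725 IDs. The 59 others held 0.0817% to 0.155% of a library's counts. Genes were filtered with filterByExpr (minimum count 10, minimum total 15), leaving 2495, and tested with edgeR 4.0.16 (TMM, age as a factor, robust quasi-likelihood, prior count 0.125), Benjamini-Hochberg at 0.05, in R 4.3.3, after a test on simulated data. Each library is 1 mouse. No library repeated another (chi-square per degree of freedom 3.57 to 6.85). Fingers were matches to Cys-x2-Cys-x12-His with a closing His or Cys in the longest coding sequence of GENCODE vM21. KRAB patterns, A-rich windows and 25-base runs of the last 500 bases shared with other genes came from the same transcripts. Alternatives were DESeq2 1.42.0, limma voom (3.58.1), other scalings, filters and age terms, the replicate number as a block, and each library left out.

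Members and lists were chosen with earlier results of these data known. Named were the 10 members with the highest mean CPM, the 8 with the smallest p on each side, the largest runs, non-overlapping members, members of a role list and those within 1 count of the limit. Zfp9, Zfp263 and the arrays of at least 10 genes were singled out after their values were seen. A further allele of the mice is not reported here.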

Additional observations from a re-analysis of the deposited data

Results flagged for a closer look

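In 10 of the 64 Zfp genes 1 tumor-bearing library stood above the other 3 by a gap that took more of the group's range than Dixon's 95% critical value for 4 samples. Chance flags about 1 in 20 groups of normally distributed values, which CPM from low counts need not be. The share of all genes flagged by this rule is not given here. The number flagged is therefore not read as a trait of the Zfp genes. The 3 tumor-free libraries are too few for the rule. Of the 10, 5 were in tumor-bearing replicate 1, the shallowest library: Zfp316 (gap 0.94 of the range, 3456 CPM against 778 CPM in the next library), Zfp397 (0.948, 823 against 515 CPM), Zfp459 (0.899, 1426 against 862 CPM), Zfp329 (0.87, 878 against 393 CPM) and Zfp959 (0.87, 672 against 410 CPM). Zfp941 (0.913, 264 against 179 CPM) and Zfp395 (0.941, 180 against 126 CPM) were high in tumor-bearing replicate 3. Zfp423 (0.845, 164 against 78.7 CPM) and Zfp318 (0.894, 246 against 41.1 CPM) were high in tumor-bearing replicate 4, the 23-week-old mouse. Zfp263 (0.982) had 77 counts, 809 CPM, in tumor-bearing replicate 2, against 20.5 CPM in the next tumor-bearing library. That library alone took Zfp263 past the mean count limit, so its gap follows from the choice of members. The same holds for Zfp318, which would lie below the limit without the 36 counts of tumor-bearing replicate 4. The part of depth or age in these gaps was not tested.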

How the results depend on the processing

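No member and no gene was called under any of the 17 alternatives, which included DESeq2, limma voom and the fit without a low count filter. Single estimates were followed for 20 named members, those with the smallest p on each side and those of the role list. Members named only for a high CPM were not followed. The adjusted p of the 20 was at least 0.795 throughout. Of them, 14 kept their sign in every alternative in which they were tested. For Zfp446, Zfp516, Zfp423, Zfp467 and Zfp994 that leaves out the stricter filter. Leaving out 1 library turned the sign of Zfp316 (range -0.0037 to 1.15, the lowest without tumor-bearing replicate 1) and Zfp148 (-0.090 to 0.97, the lowest without tumor-free replicate 1). Without tumor-free replicate 2 the sign turned for Zfp329 (range -0.81 to 0.055), Zfp949 (-0.39 to 0.022), Zfp462 (-0.076 to 0.68) and Zfp318 (-1.74 to 0.12), and Zfp318 was at 0.15 with limma voom. The cause was not tested. The median log2 fold change of members ranged from -0.012 to 0.095 when 1 library was left out. The summed share of counts differed by 0.0325 to 0.267 percentage points in those runs. Joining all Zfp genes in place of members alone put 38 members in runs, by construction. With a mean count limit of 5 or 20 there would be 86 or 44 members. With the replicate number as a block, which has no age term and leaves out tumor-bearing replicate 4, 0 members were called and the median was 0.05. Same-numbered libraries did not deviate together (correlations -0.207, -0.122 and -0.146), so the numbers were not taken as pairs. Members near 10 counts had as few as 1 count in single libraries, and depth limits what can be said of them.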
